A study of Mus musculus with 40 samples.

Results

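The response of mouse cardiac fibroblasts to interleukin-1β (IL-1β) was measured by comparing 4 RNA-seq libraries of cells given IL-1β (15 ng/ml) for 24 h with 4 libraries of cells given no ligand (CTRL). The comparison used 8 of the 40 libraries of the series and 25210 of the 55414 genes in the count table, which were the genes with at least 10 counts over all 40 libraries. All cells came from adult male C57BL/6J mice whose *Map3k7* alleles both carry loxP sites (TAK1 fl/fl). They were used at passage 1 and carried an adenovirus in which the CMV promoter drives LacZ, so that TAK1, the kinase encoded by *Map3k7*, remained intact. They were serum-starved before the ligand was added, and CTRL cells were starved in the same way. Earlier growth medium had held human bFGF (20 ng/ml) in every group. Where the response is set beside others below, the other groups were LacZ cells given TNFα (10 ng/ml) for 24 h and cells that carried iCre in place of LacZ, which deletes exon 2 of *Map3k7*, with and without IL-1β (4 libraries each). The study describes the 4 libraries of a group as biological replicates, and the sources used here do not say whether each came from its own animal.

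IL-1β is a cytokine released early after tissue injury. It binds the receptor encoded by *Il1r1* together with the accessory chain *Il1rap*, and the adaptor MyD88 and the IRAK kinases pass the signal to TRAF6 and TAK1. TAK1 activates the IκB kinases, which free NF-κB from its inhibitors, and the MAP kinases, which act on AP-1. In fibroblasts the pathway is known for chemokines that attract neutrophils and monocytes, for metalloproteinases and for inducible nitric oxide synthase. Many of the genes it switches on encode its own inhibitors.

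Between 28888257 and 51264530 counts per library lay behind the values of the 8 libraries. The replicate number was a block in each fit, since equal numbers marked similar libraries. Replicate 2 stood apart in both groups. Its correlation of log2 CPM with the other libraries of its group was 0.960 to 0.966 in CTRL and 0.970 to 0.977 with IL-1β, and it held 161 CPM of *Il1rl1* in CTRL against 0.402 to 1.92 CPM in the other 3 libraries. The fibroblast genes *Col1a1* (4119 to 5624 CPM) and *Pdgfra* (978 to 1884 CPM) were high in every CTRL library. Of 10 fibroblast markers, IL-1β raised 4 and lowered 4 (2 and 1 without the replicate block). Of 24 markers of other cells, 21 could be tested, of which 5 were raised and 6 lowered (3 and 2 without the replicate block). Summed leukocyte and macrophage markers spanned 50.1 to 145 CPM in CTRL and 47.4 to 159 CPM with IL-1β, summed endothelial markers 2.17 to 14.7 and 1.95 to 5.67 CPM, and the T-cell marker *Cd3e* had 0 counts in all 40 libraries. Summed pericyte markers, mostly *Rgs5*, spanned 86.1 to 536 CPM in CTRL and 240 to 758 CPM with IL-1β. Summed cardiomyocyte markers, nearly all from *Tnnt2*, spanned 14.7 to 110 CPM in CTRL and 0.299 to 1.67 CPM with IL-1β. Both mesothelial markers were lowered, with sums of 2.76 to 3.87 CPM in CTRL and 0.723 to 1.95 CPM with IL-1β that did not overlap. The neutrophil marker was *S100a8*, which was raised from at most 0.0220 CPM to between 0.353 and 1.20 CPM. The part of these cells in the results was not tested.

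IL-1β raised 4098 genes and lowered 4357 genes, together 33.5% of those tested (adjusted p of at most 0.05 from edgeR's quasi-likelihood test with Benjamini-Hochberg adjustment). The raised genes were 16.3% and the lowered genes 17.3% of the 25210 tested. The counts of raised and lowered members in the gene lists below are to be read against these shares. Large changes were fewer, with 404 raised and 454 lowered genes at a log2 fold change of 2 or more in size. Without replicate 2, 4074 genes rose and 4490 fell, and without the replicate block 2800 rose and 2408 fell. The 4 IL-1β libraries lay outside the range of the 4 CTRL libraries for 6278 genes, 24.9% of those tested. The median log2 fold change over all genes was −0.09. The raised genes took 35.6% of all counts in CTRL and 50.6% with IL-1β, whereas the lowered genes went from 23.4% to 13.5%. The 10 genes with the largest gains in CPM (*Mmp3*, *C3*, *Fth1*, *Saa3*, *Col1a1*, *Cxcl5*, *Fstl1*, *Lcn2*, *Bgn* and *Dcn*) went from 2.19% ± 0.234 to 5.85% ± 0.919 (SD, n = 4) of all counts. Of these, *Bgn* did not pass the test without the replicate block (adjusted p = 0.163).

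**Figure D1:**
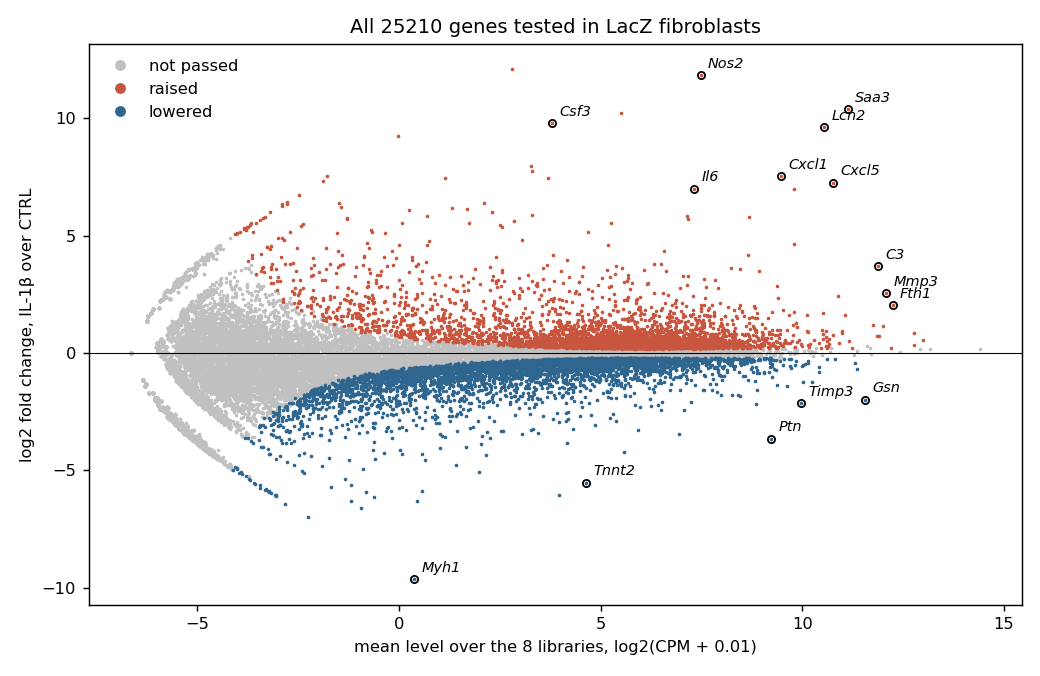
Log2 fold change, IL-1β over CTRL (y axis), against log2 of the mean CPM plus 0.01 over the 8 libraries (x axis), 1 point per gene for 25210 genes. Raised (4098) and lowered (4357) genes passed the test at an adjusted p of at most 0.05, and circled genes are among those named in the text.

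*Nos2*, *Cxcl1* and *Mmp3*, which mark the response, were all raised. *Nos2* (ENSMUSG00000020826, chr11:78920787-78960254, GRCm38) encodes inducible nitric oxide synthase. Its levels were 0, 0.220, 0.0887 and 0.0581 CPM in CTRL replicates 1 to 4 and 205, 362, 373 and 489 CPM with IL-1β. The gene was close to undetected without the ligand, with 17 counts over the CTRL libraries. Every treated library was far above that level (log2 fold change 11.84, standard error 0.18, adjusted p = 1.52e-30). *Cxcl1* (ENSMUSG00000029380, chr5:90891241-90893115), a chemokine that attracts neutrophils, was at 7.39, 8.19, 6.88 and 7.18 CPM in CTRL and 1969, 804, 1401 and 1501 CPM with IL-1β. The CTRL libraries were nearly alike, and replicate 2 was lowest among the treated libraries (log2 fold change 7.52, standard error 0.16, adjusted p = 1.01e-26). *Mmp3* (ENSMUSG00000043613, chr9:7445822-7455975) encodes stromelysin-1, a protease that cleaves matrix and activates other metalloproteinases. It was already at 990, 1470, 1328 and 1135 CPM in CTRL and reached 10670, 4380, 6563 and 8098 CPM with IL-1β. The groups did not overlap, although the treated libraries ranged more widely than the CTRL libraries (log2 fold change 2.55, standard error 0.16, adjusted p = 9.97e-15). Without replicate 2 the log2 fold changes were 12.63 for *Nos2*, 7.81 for *Cxcl1* and 2.85 for *Mmp3*.

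**Figure D2:**
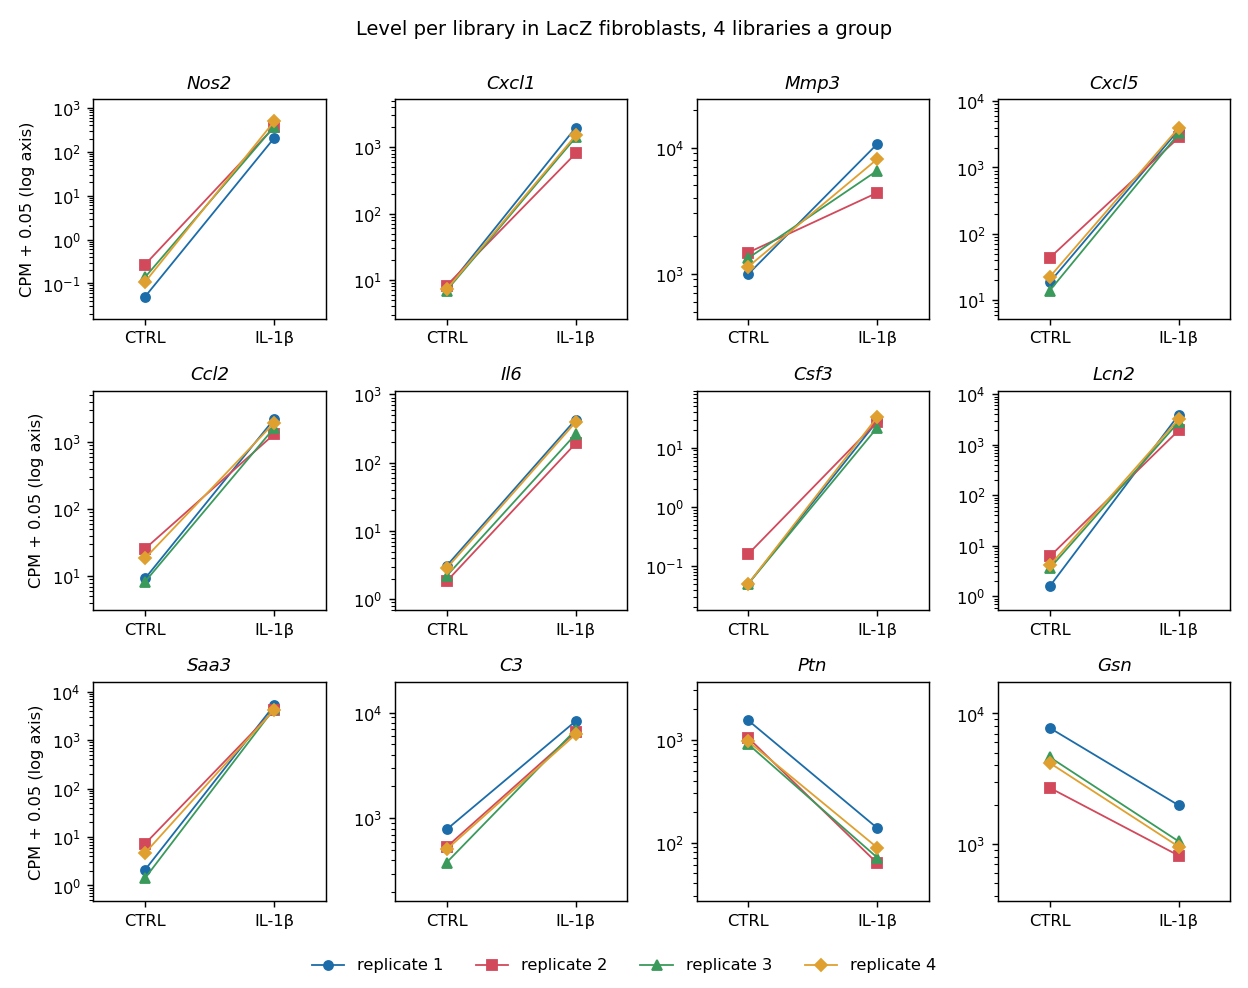
CPM plus 0.05 on a log axis for 12 genes in the 4 CTRL and the 4 IL-1β libraries, with lines joining libraries of the same replicate number. The 12 genes were picked from those named in the text, with their changes known. Their groups do not overlap (as for 24.9% of all genes tested), with *Ptn* and *Gsn* lower and the other 10 genes higher with IL-1β.

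The sequences just upstream of induced genes are shown because the transcription factors downstream of TAK1 bind short motifs there. The promoters below are the 200 bases that end at or next to the annotated start in RefSeq (GRCm38.p6), all on the plus strand and written 5′ to 3′, with capitals for a match to the kappaB-type letters GGGANNTTC on either strand (*Cxcl1*, *Cxcl2*, *Cxcl3* and *Il6*) or to the AP-1-type letters TGANTCA (*Mmp3*).
Cxcl1, chr5:90891045-90891244: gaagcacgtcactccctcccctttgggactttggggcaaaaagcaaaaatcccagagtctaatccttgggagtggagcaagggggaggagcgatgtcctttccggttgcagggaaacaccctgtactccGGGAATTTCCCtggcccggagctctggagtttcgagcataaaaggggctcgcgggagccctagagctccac
Cxcl2, chr5:90903699-90903898: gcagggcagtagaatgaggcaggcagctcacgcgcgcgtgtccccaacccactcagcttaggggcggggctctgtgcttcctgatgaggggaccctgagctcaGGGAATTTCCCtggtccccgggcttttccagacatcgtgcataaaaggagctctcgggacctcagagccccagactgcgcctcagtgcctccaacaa
Cxcl3, chr5:90785901-90786100: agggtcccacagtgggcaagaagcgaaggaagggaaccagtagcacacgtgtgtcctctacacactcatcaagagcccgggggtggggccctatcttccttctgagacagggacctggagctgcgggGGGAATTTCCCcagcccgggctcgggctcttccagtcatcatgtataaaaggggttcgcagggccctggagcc
Il6, chr5:30012914-30013113: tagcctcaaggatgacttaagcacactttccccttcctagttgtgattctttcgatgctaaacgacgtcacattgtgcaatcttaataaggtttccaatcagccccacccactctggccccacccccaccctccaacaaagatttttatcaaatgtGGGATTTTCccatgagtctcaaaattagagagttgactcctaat
Mmp3, chr9:7445622-7445821: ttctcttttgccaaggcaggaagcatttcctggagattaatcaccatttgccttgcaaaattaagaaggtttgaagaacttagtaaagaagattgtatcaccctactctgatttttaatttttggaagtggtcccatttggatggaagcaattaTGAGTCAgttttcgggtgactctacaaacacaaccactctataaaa
The 3 neighbouring chemokine genes on chromosome 5 shared the same 11 letters, GGGAATTTCCC, which match on both strands, at positions −71, −97 and −73 from the start. *Il6* held GGGATTTTC at −44, and *Mmp3* held TGAGTCA at −46 and no kappaB-type match. Over windows of 300 bases around the start, kappaB-type letters were in 4.56% of 14592 tested genes with a promoter, and in 15 of 156 raised genes (9.62%) whose log2 fold change was 2 or more and whose mean level reached 1 CPM. They were in 0 of 102 genes lowered as much. Only these 156 and 102 of the 229 raised and 145 lowered genes of that size and level had a promoter. The share over all promoters had no limit on level, so the sets were not matched in level. AP-1-type letters were in 7.55% of all promoters, in 26 of the 156 raised genes (16.7%) and in 7 of the 102 lowered genes (6.86%). The ISRE-type letters GAAANNGAA, of a motif bound by interferon regulatory factors, were in 8.99% of all promoters, 14.1% of the raised genes and 9.80% of the lowered genes. These are matches of letters and not measured binding. *Nos2*, *Cxcl5*, *Csf3* and *Ccl2* had no promoter in the table used.

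Genes for the receptor itself and the proteins below it changed little in comparison with its targets. *Il1r1*, the signalling receptor, was at 235, 175, 203 and 200 CPM in CTRL and 412, 276, 304 and 340 CPM with IL-1β, and all treated libraries exceeded all CTRL libraries (log2 fold change 0.71, standard error 0.08, adjusted p = 6.51e-09). Of 9 receptors and antagonists tested, 6 were raised and 0 lowered. Without the replicate block 2 passed, *Il1r1* and the decoy receptor *Il1r2* (0.515 to 1.26 CPM, log2 fold change 1.30), whereas *Il1rap*, *Il1rl2*, *Il1rl1* and *Il18rap* did not (adjusted p = 0.224, 0.181, 0.870 and 0.481). The level of the IL-33 receptor gene *Il1rl1* lay mostly in replicate 2, with 238 CPM there against 0.997 to 5.24 CPM in the other IL-1β libraries, and its call held without replicate 2 (log2 fold change 1.51, and 1.03 with it). The receptor antagonist *Il1rn* was at 7.57 CPM in CTRL and 4.24 CPM with IL-1β and did not pass (adjusted p = 0.0898). It was lowered without replicate 1 or 4 (0.0141 and 6.47e-05). Of 16 adaptors and kinases, 9 were raised and 2 lowered, with a median log2 fold change of 0.25 (7 and 1 without the replicate block, and 1 lowered without replicate 3). *Irak3*, an inhibitory member of the IRAK kinases, went from 34.5 to 62.2 CPM (log2 fold change 0.87), and *Irak2* from 9.61 to 16.8 CPM (0.83). *Map3k7* was at 155, 144, 154 and 159 CPM in CTRL and 237, 199, 211 and 233 CPM with IL-1β (log2 fold change 0.53, standard error 0.08, adjusted p = 1.04e-06). *Traf6* (28.0 and 28.2 CPM) and *Ikbkb* (47.2 and 50.5 CPM) did not pass, and *Tab1* fell by 0.33 on the log2 scale.

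All 11 genes for NF-κB subunits and IκB proteins rose, with a median log2 fold change of 1.35. The largest increases were in nuclear and cytoplasmic IκB proteins. *Nfkbiz*, a nuclear IκB protein needed for a subset of NF-κB targets, was at 31.5, 51.6, 26.3 and 28.8 CPM in CTRL and 252, 271, 219 and 248 CPM with IL-1β (log2 fold change 2.90, standard error 0.10, adjusted p = 8.64e-22). *Nfkbia*, the gene for IκBα, went from 27.6 ± 4.67 to 159 ± 14.9 CPM (2.55), *Bcl3* from 26.3 to 99.5 CPM (1.98) and *Nfkbie* from 12.5 to 34.1 CPM (1.46). Among the subunits, *Relb* (1.43) and *Nfkb2* (1.35) rose more than *Nfkb1* (0.85) and *Rela* (0.47) by their estimates, and those differences were not tested. *Nfkbid*, under 1 CPM, lost its call without the replicate block (adjusted p = 0.0858) and without each single replicate. Of 18 feedback regulators and mRNA decay factors, 12 were raised and 2 lowered (8 and 1 without the replicate block). Without replicate 1, 2 or 3, 1 gene fell. *Zc3h12a*, a nuclease that degrades cytokine mRNAs, was at 10.4, 8.50, 8.53 and 8.66 CPM in CTRL and 210, 146, 189 and 185 CPM with IL-1β (log2 fold change 4.34). *Tnfaip3*, which encodes the ubiquitin-editing enzyme A20, went from 10.9 to 123 CPM (3.54) and *Birc3* from 20.5 to 97.0 CPM (2.25). The decay factors *Zfp36* and *Zfp36l2* did not pass, and *Zfp36* passed without replicate 1 (adjusted p = 0.00669). Of 10 AP-1 genes, 6 rose and 2 fell (5 and 0 without the replicate block, and 1 lowered without replicate 1, 3 or 4), led by *Fosl1* (5.97 to 26.8 CPM, 2.27), while *Jun* (48.3 to 86.7 CPM, 0.99) did not pass without the replicate block (adjusted p = 0.115).

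Chemokine genes were among the most strongly raised. Of 6 CXC chemokines that attract neutrophils, 5 rose and 1 fell, with a median log2 fold change of 5.93. *Cxcl5* was at 18.7, 43.6, 14.0 and 22.5 CPM in CTRL and 3703, 2835, 3257 and 3986 CPM with IL-1β. Every treated library exceeded every CTRL library by a wide margin (log2 fold change 7.26, standard error 0.20, adjusted p = 5.15e-24). *Cxcl2* (0.159 to 9.70 CPM, 6.03) and *Cxcl3* (0.0505 to 3.15 CPM, 5.83) rose by smaller log2 estimates than *Cxcl5*, from far lower levels. *Ppbp*, at or below 0.461 CPM in all 8 libraries, did not pass without the replicate block (adjusted p = 0.0932) or without replicate 1 (0.0862), and *Cxcl15* fell from 1.47 to 0.425 CPM (−1.80). Of 10 other CXC and CX3C chemokines, 7 rose and 0 fell. *Cxcl16* went from 48.0 ± 1.30 to 347 ± 90.8 CPM (2.83), *Cx3cl1* from 83.3 to 350 CPM (2.05), and *Cxcl12*, which retains leukocyte progenitors in their niches, from 2866 to 4607 CPM (0.72). *Cxcl10*, which draws T cells, varied more between replicates than between groups, with 0.357, 6.48, 4.60 and 11.9 CPM in CTRL and 1.75, 41.6, 28.4 and 73.7 CPM with IL-1β (2.63, adjusted p = 0.0844 without the replicate block). Nonetheless each treated library was above the CTRL library of its own number.

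Of 18 CC chemokines, 11 rose and 1 fell. *Ccl2*, the main attractant of inflammatory monocytes, was at 9.22, 25.7, 8.25 and 18.5 CPM in CTRL and 2209, 1317, 1634 and 1945 CPM with IL-1β (log2 fold change 6.98, standard error 0.22, adjusted p = 2.96e-22). *Ccl7* followed at 15.3 ± 7.61 and 800 ± 204 CPM (5.81). *Ccl5* went from 4.16 to 68.7 CPM (4.59, and 5.31 without replicate 4) and the eosinophil attractant *Ccl11* from 1.19 to 9.40 CPM (3.07). *Ccl9*, at 21.9 ± 8.24 and 21.4 ± 4.19 CPM, did not pass (adjusted p = 0.956) but was raised without replicate 2 (0.000575).

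Colony-stimulating factors and cytokines of the IL-6 family were mostly raised, with 8 of 11 raised and 0 lowered. *Csf3*, which encodes G-CSF, the growth factor of neutrophil precursors, had counts in 1 of 4 CTRL libraries (0, 0.110, 0 and 0 CPM) and 28.2, 27.7, 21.9 and 33.1 CPM with IL-1β (log2 fold change 9.80). Without replicate 2, the CTRL library with counts, the level with IL-1β was at least 401-fold higher than a floor of 3 counts per CTRL library. *Il6*, a cytokine that drives the acute-phase response, was at 3.04, 1.78, 2.15 and 2.79 CPM in CTRL and 428, 192, 262 and 392 CPM with IL-1β (log2 fold change 7.01, standard error 0.11, adjusted p = 1.52e-30). Both were low without the ligand and their groups were well separated. *Lif* went from 3.53 to 44.0 CPM (3.66) and *Csf1*, the growth factor of macrophages, from 412 to 1378 CPM (1.73). Of 16 other cytokines of the IL-1, TNF and interferon families, 8 rose and 3 fell (6 and 1 without the replicate block, and 1 lowered without replicate 3 or 4). *Tnfsf11*, the gene for RANKL, went from 1.91 to 13.7 CPM (3.20) and *Il33* from 43.3 to 82.2 CPM (0.97, a call lost in a fit of all 40 libraries, adjusted p = 0.169). Without replicate 2 the value of *Tnfsf11* was 3.81. *Tnf* was at 0.359 CPM in CTRL and 0.460 CPM with IL-1β (adjusted p = 0.52), and *Il1b*, at 0.224 CPM or less in each of the 8 libraries, did not pass (adjusted p = 0.068) but passed without the replicate block (0.0435) and, with the block, among protein-coding genes only (0.0443).

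Acute-phase proteins showed the highest median change of the 34 gene lists after the neutrophil attractants, with 13 of 16 raised, 0 lowered and a median log2 fold change of 3.60. *Saa3*, a serum amyloid A protein made outside the liver, was at 2.05, 7.20, 1.37 and 4.62 CPM in CTRL and 5162, 4115, 4438 and 4184 CPM with IL-1β (log2 fold change 10.39, standard error 0.27, adjusted p = 2.39e-24, and 0.00253 with robust moderation). *Lcn2*, which binds bacterial siderophores, was at 1.54, 6.13, 3.55 and 4.07 CPM in CTRL and 3946, 1948, 2850 and 3238 CPM with IL-1β (9.64). Both genes were at a few CPM in every CTRL library and at 1948 CPM or more in every treated library. *Saa4* (0.0237 to 4.36 CPM, 7.45) and *Saa2* (0.0329 to 2.33 CPM, 6.07) remained low. Without replicate 2 *Saa4* had 1 count in CTRL and 419 with IL-1β, a ratio of 492 per total counts (counting interval 87.9 to 19495), and *Saa2*, then at 0 counts in CTRL, was at least 31.7-fold higher than the floor of 3 counts per library. Reads of *Saa1* and *Saa2*, which are near-identical copies, may be split uncertainly between them. Of 22 complement genes, 9 rose and 5 fell (7 and 2 without the replicate block, and 2 lowered in a fit of all 40 libraries). *C3*, the central complement component, was at 784, 535, 381 and 507 CPM in CTRL and 8299, 6530, 6859 and 6219 CPM with IL-1β (3.71), and *Cfb* went from 2.69 to 29.7 CPM (3.48).

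Adhesion molecules for leukocytes rose in 12 of 14 cases and fell in 1. *Selp*, the gene for P-selectin, was at 5.78, 3.01, 6.53 and 4.59 CPM in CTRL and 461, 88.9, 317 and 262 CPM with IL-1β (log2 fold change 5.70), with replicate 2 lowest in both groups. *Sele* went from 1.69 to 22.2 CPM (3.63), *Cd44*, a hyaluronan receptor, from 63.1 to 421 CPM (2.76) and *Vcam1*, a ligand of leukocyte integrins, from 684 ± 37.9 to 2236 ± 350 CPM (1.71). The summed endothelial markers, given above, were no higher with IL-1β. Of 16 Toll-like receptors and co-receptors, 6 rose and 3 fell (5 and 2 without the replicate block), and *Tlr2*, a receptor for bacterial lipoproteins, rose most (12.2 ± 1.39 to 169 ± 26.5 CPM, 3.80).

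Of 16 genes of nitric oxide and arginine metabolism, 7 rose and 4 fell (6 and 2 without the replicate block, and 2 lowered without replicate 3). Beside *Nos2*, the arginine transporter *Slc7a2* was at 251, 98.1, 152 and 160 CPM in CTRL and 1324, 793, 1290 and 1254 CPM with IL-1β (2.88). *Gch1*, which makes the cofactor of nitric oxide synthase, went from 3.36 to 20.8 CPM (2.69), while *Ass1*, which rebuilds arginine from citrulline, did not pass (145 and 156 CPM). Of 23 oxidases and antioxidant enzymes, 14 rose and 4 fell (12 and 0 without the replicate block, and 1 lowered without replicate 3). *Sod2*, the mitochondrial superoxide dismutase, was at 46.8, 42.9, 39.9 and 38.1 CPM in CTRL and 895, 684, 717 and 754 CPM with IL-1β (log2 fold change 4.19, standard error 0.09, adjusted p = 1.85e-26). The spread in each group was small against that difference. The cystine transporter *Slc7a11* (5.57 to 77.6 CPM, 3.72) and the ferritin heavy chain *Fth1* (1916 to 7823 CPM, 2.03) rose too. Of 25 prostaglandin genes, 10 rose and 6 fell (8 and 3 without the replicate block). *Ptgs2*, the inducible cyclooxygenase, was at 6.83, 20.4, 8.93 and 9.27 CPM in CTRL and 94.4, 191, 128 and 182 CPM with IL-1β (3.79), *Ptges2* went from 12.2 to 48.0 CPM (1.97) and *Pla2g4a*, which releases arachidonic acid, from 50.3 to 183 CPM (1.94). *Hpgd*, which inactivates prostaglandins, fell from 3.24 to 0.458 CPM (−2.81), and the constitutive *Ptgs1* did not pass (83.3 and 83.8 CPM).

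Most genes of glycolysis and cholesterol synthesis rose. Of 27 genes of glycolysis and the hypoxia response, 22 rose and 3 fell, with a median log2 fold change of 1.44 (21 and 0 without the replicate block). *Slc16a1*, a lactate transporter, went from 16.6 ± 4.79 to 180 ± 14.7 CPM (3.48), and hexokinase 2 (*Hk2*) went from 10.4 to 92.3 CPM (3.21). The glycolytic enzymes *Pkm* (557 to 1687 CPM, 1.60) and *Aldoa* (527 to 1215 CPM, 1.21) rose from far higher levels. Of 24 cholesterol synthesis genes, 24 rose, with a median of 1.10 (23 without the replicate block, and 14 with robust moderation in edgeR). *Hmgcs1*, an early enzyme of the pathway, was at 112, 136, 120 and 136 CPM in CTRL and 448, 271, 238 and 295 CPM with IL-1β (1.28), and replicate 1 was highest among the treated libraries.

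Matrix proteases and their inhibitors changed in both directions. Of 20 metalloproteinases, 11 rose and 4 fell (8 and 2 without the replicate block). The share that fell was close to the 17.3% of all genes tested, while 16.3% of all genes rose. *Mmp13*, a collagenase, went from 1.90 ± 1.41 to 23.5 ± 9.92 CPM (3.77), the neutrophil collagenase *Mmp8* from 0.969 to 10.8 CPM (3.55) and *Mmp12*, an elastase, from 1.09 to 8.70 CPM (3.11). *Mmp2*, the gelatinase already at 1958 CPM in CTRL, was at 1640 CPM with IL-1β (−0.24), and its call was lost without replicate 1, 3 or 4 (adjusted p = 0.0699, 0.0596 and 0.0603) and without the replicate block (0.174). Of the tissue inhibitors of metalloproteinases, *Timp1* rose from 600, 401, 601 and 643 CPM to 4913, 1765, 2646 and 3517 CPM (2.45). *Timp3* moved the other way, from 2912, 537, 1659 and 1470 CPM to 659, 171, 328 and 281 CPM (−2.12). Its groups overlapped through CTRL replicate 2, and without replicate 2 the value was −2.29. The gene lies within *Syn3* on the opposite strand, which had 262 counts in the 8 libraries, and the strand setting of the counting is not given in the sources used here. *Timp2* was at 2908 and 2129 CPM (−0.44, adjusted p = 0.0747 without the replicate block). *Serpinb2*, which inhibits urokinase, went from 1.52 to 49.7 CPM (5.15, and 5.79 without replicate 2). Of 18 ADAMTS proteases, 7 rose and 5 fell (4 and 2 without the replicate block, and 3 lowered without replicate 3 and 2 in a fit of all 40 libraries), with *Adamts9* raised most (16.6 to 127 CPM, 2.94) and *Adamts17* lowered most (1.89 to 0.107 CPM, −4.14, and −4.73 without replicate 2).

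More collagen genes fell than rose, with 10 of 42 raised, 21 lowered and a median log2 fold change of −0.56 (6 and 9 without the replicate block). *Col1a1*, a chain of the main fibrillar collagen, was an exception, at 5624, 4119, 5073 and 4813 CPM in CTRL and 12655, 6875, 8426 and 8316 CPM with IL-1β (0.87, standard error 0.09, adjusted p = 3.74e-09). *Col3a1*, at 20265 ± 4880 and 23326 ± 7758 CPM, did not pass (adjusted p = 0.141) but passed without replicate 3 (0.0234). *Col27a1*, a fibrillar collagen of cartilage, went from 27.1 to 3.94 CPM (−2.95) and *Col6a6* from 2.79 to 0.142 CPM (−4.29). Of 30 matricellular and elastic fibre genes, 14 rose and 8 fell (9 and 1 without the replicate block, and 5 lowered without replicate 3 or 4 and 3 in a fit of all 40 libraries). *Lox*, which crosslinks collagen, went from 1047 ± 370 to 3232 ± 1222 CPM (1.64), and *Ccn2* was at 253, 67.1, 102 and 102 CPM in CTRL and 1221, 235, 406 and 410 CPM with IL-1β (2.03). *Fn1* and *Sparc* did not pass (adjusted p = 0.221 and 0.207), and *Sparc* passed without replicate 3 (0.0433). Of 20 proteoglycan and hyaluronan genes, 7 rose and 7 fell (6 and 4 without the replicate block). The hyaluronan synthases *Has1* (2.15 to 17.6 CPM, 3.07) and *Has2* (9.29 to 46.1 CPM, 2.35) and decorin (*Dcn*, 2083 to 4862 CPM, 1.18) rose, while *Aspn* fell from 137 to 35.0 CPM (−2.21). Of 20 contractile genes of myofibroblasts, 5 rose and 6 fell (4 and 2 without the replicate block, and 2 lowered in a fit of all 40 libraries). *Acta2*, which encodes smooth muscle α-actin, was at 166, 265, 165 and 113 CPM in CTRL and 504, 371, 276 and 203 CPM with IL-1β, groups that overlapped (0.93). Its call was lost in a fit of all 40 libraries (adjusted p = 0.0509) and with robust moderation (0.0592), and *Myh9* did not pass (798 and 808 CPM).

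Among growth factors and receptors, 15 of 36 rose and 12 fell (9 and 8 without the replicate block, and 7 lowered with robust moderation). *Ereg*, a ligand of the EGF receptor, went from 16.1 to 128 CPM (2.99). *Angpt2*, which antagonises the Tie2 receptor of endothelium, fell from 300, 121, 240 and 237 CPM to 20.9, 46.2, 16.1 and 9.25 CPM (−3.46). That value was −4.13 without replicate 2, and its call was lost with robust moderation (adjusted p = 0.0547). *Fgf18* fell from 8.33 to 0.795 CPM (−3.36). Of 37 genes of the TGFβ and BMP pathways, 17 rose and 12 fell (9 and 8 without the replicate block). *Bmp4* (38.9 to 10.1 CPM, −1.88) and *Id1*, a direct target of BMP signalling (30.5 ± 4.81 to 8.43 ± 1.77 CPM, −1.85), fell, while the receptor *Bmpr2* rose (176 to 497 CPM, 1.49). Of 19 factors of fibroblast identity, 6 rose and 6 fell (4 and 1 without the replicate block), led by *Runx1* (20.6 to 98.6 CPM, 2.32).

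Many interferon-stimulated and antigen presentation genes were raised, and fewer of them passed without the replicate block. Of 36 interferon-stimulated genes, 25 rose and 0 fell with a median log2 fold change of 0.49, and 5 rose without the replicate block and 10 in a fit of all 40 libraries. *Ifit1* was at 40.1, 223, 299 and 486 CPM in CTRL and 111, 346, 283 and 543 CPM with IL-1β (0.55, adjusted p = 0.790 without the block), so the replicates differed far more than the groups. *Gbp5*, a GTPase of host defence, rose from 4.42, 9.27, 15.6 and 22.5 CPM to 31.1, 76.7, 72.8 and 89.6 CPM without overlap (2.51). Of 17 immunoproteasome and MHC class I genes, 16 rose and 0 fell (8 without the replicate block), among them *H2-K1* (246 to 658 CPM, 1.50), whose reads can be shared with related H2 genes. *B2m* was at 1389 and 1670 CPM (0.30), and its call was lost without the replicate block (adjusted p = 0.494) and without replicate 1 (0.0947). Of 35 genes of DNA replication and mitosis, 21 fell and 4 rose. The number lowered was 2 without the replicate block, 6 in a fit of all 40 libraries, 8 without replicate 3 and 10 without replicate 4. *Cenpf* was at 9.15, 4.22, 28.2 and 36.1 CPM in CTRL and 5.69, 3.23, 12.1 and 10.7 CPM with IL-1β (−1.06, adjusted p = 0.183 without the block).

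**Figure D3:**
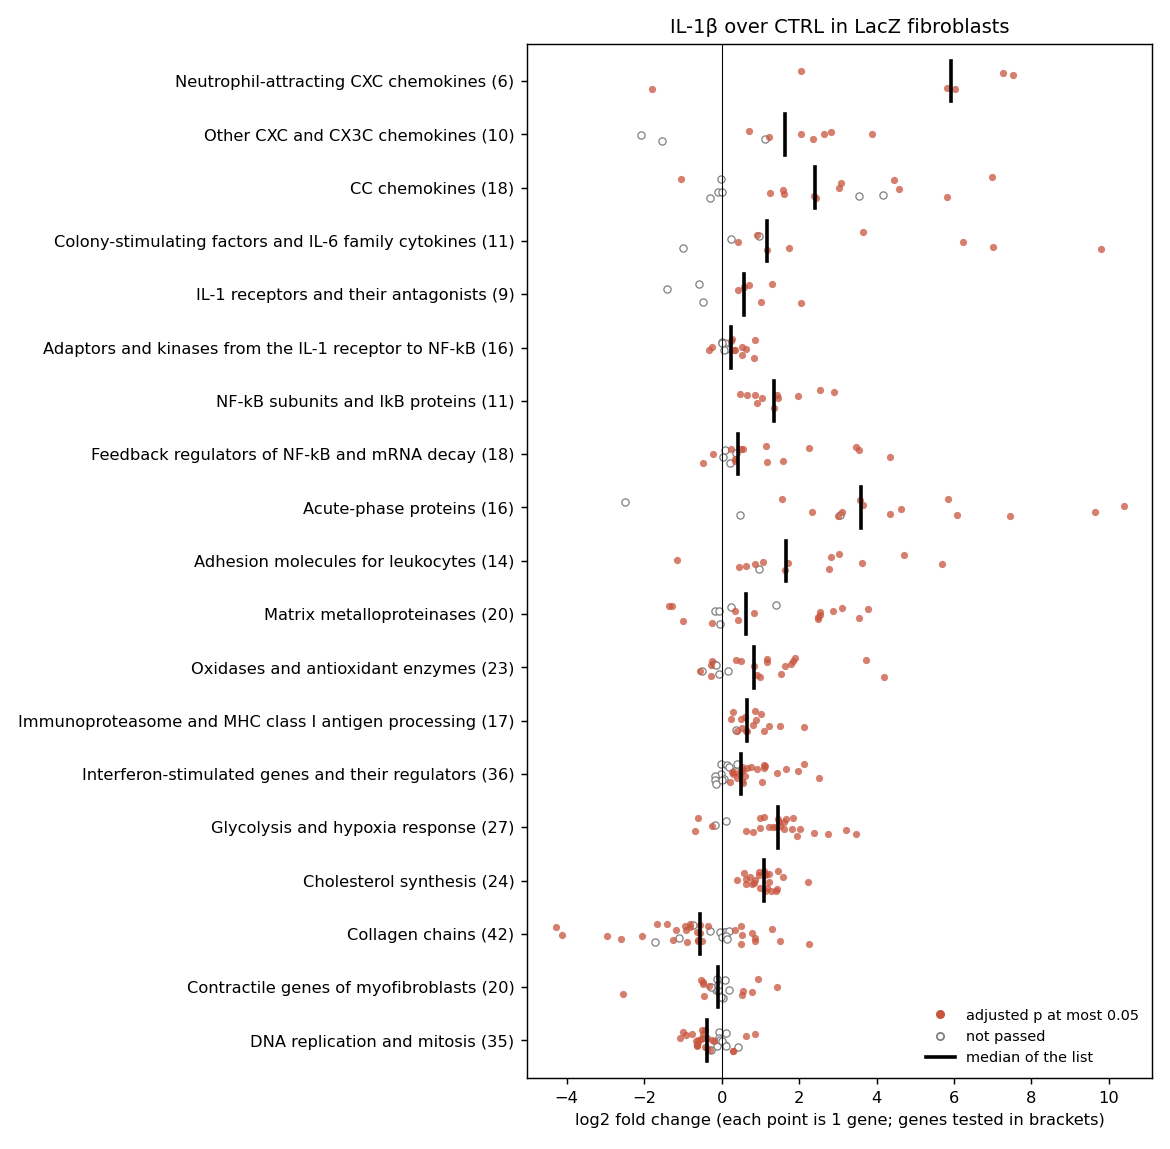
Log2 fold change, IL-1β over CTRL, for the members of 19 gene lists, 1 point per gene, with filled points at an adjusted p of at most 0.05 and a black bar at each list's median. The medians run from 5.93 in the CXC chemokines that attract neutrophils to −0.56 in the collagen chains.

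Beyond the lists, the largest increases included genes that were nearly silent without the ligand. *Sprr2e*, a small proline-rich protein of the epithelial cornified envelope, had 0 counts in the 4 CTRL libraries and 14.6, 9.61, 13.9 and 17.6 CPM with IL-1β, at least 204-fold higher than a floor of 3 counts per library. *Sprr2b* of the same family was at 0, 0.0659, 0.142 and 0.0581 CPM in CTRL and 164, 39.2, 87.4 and 73.1 CPM with IL-1β (log2 fold change 10.24). *Sprr2* genes are close copies of each other, so counts may be split uncertainly among them, and the epithelial marker *Epcam* did not exceed 0.249 CPM in any of the 8 libraries. *Vnn3* (0.0699 to 19.4 CPM, 7.97) and the amino acid transporter *Slc36a2* (0.0837 to 19.5 CPM, 7.75) complete the 10 largest increases with *Nos2*, *Saa3*, *Csf3*, *Lcn2*, *Cxcl1* and *Saa4*. Without replicate 2 *Slc36a2* was at 8.78, without replicate 3 *Vnn3* was at 8.97, and *Sprr2b* was at 9.42 without replicate 1 and 11.05 without replicate 3. *Trdc*, the constant segment of the T-cell receptor δ chain, went from 0.135 to 25.8 CPM (7.45, and 8.48 without replicate 2), although *Cd3e* was at 0 counts. *S100a8*, a neutrophil marker, had 2 counts over the CTRL libraries, in replicates 2 and 3, and 108 over the IL-1β libraries. The ratio of these pooled counts, each divided by its group's total counts, was 62.5 (counting interval 16.9 to 523), and the fitted log2 fold change was 5.77 (without replicate 2, 1 and 95 counts, a ratio of 112 with a counting interval of 19.6 to 4456).

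The largest relative decreases were in genes of low level. *Tnnt2*, which encodes cardiac troponin T, was at 110, 14.6, 43.2 and 28.4 CPM in CTRL and 1.46, 0.271, 1.64 and 0.673 CPM with IL-1β (log2 fold change −5.51, standard error 0.15, adjusted p = 1.05e-23). The cardiomyocyte genes *Myh6* and *Nppa* had under 10 counts in all 40 libraries, and in bulk RNA fewer cells of a type and less RNA per cell cannot be told apart. *Myh1*, a skeletal muscle myosin whose gene overlaps an antisense gene with few counts, was at 3.01, 0.0439, 3.64 and 3.57 CPM in CTRL and 0 counts in every IL-1β library, at least 28.3-fold lower against the same floor. *Wnt4* fell from 8.51 to 0.423 CPM (−4.35), and *Kcnj5*, *Rhov*, *Cntn2*, *Gm13749*, *Gria1* and *Myoc* fell by 4.31 to 6.29 on the log2 scale from CTRL means of 7.68 CPM or less. Without replicate 1 *Kcnj5* had 296 counts in CTRL and 1 with IL-1β, and without replicate 2 *Gria1* had 379 and 1, so the size of either loss rested on single counts. In absolute terms the largest loss was in *Gsn*, the actin-severing protein gelsolin, at 7745, 2696, 4627 and 4179 CPM in CTRL and 1978, 816, 1048 and 955 CPM with IL-1β (−1.98). *Ptn*, the growth factor pleiotrophin, fell from 1536, 1041, 902 and 960 CPM to 138, 62.8, 71.3 and 89.1 CPM (−3.64). Both genes were lower in every treated library than in any CTRL library. The fibroblast filament gene *Vim* (3254 to 2003 CPM, −0.68) and *Mgp*, an inhibitor of calcification (1465 to 629 CPM, −1.24), were also among the 10 largest losses, and *Thbs2* and *Timp2* among them did not pass without the replicate block (adjusted p = 0.186 and 0.0747).

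The IL-1β libraries were compared directly with LacZ libraries given TNFα for the same time, at a dose that differed (15 and 10 ng/ml). Of 25210 genes, 6107 (24.2%) differed, with 3029 (12.0%) higher with IL-1β and 3078 (12.2%) higher with TNFα. Without the replicate block 2426 genes differed. *Csf3* was at 0, 0.0350, 0.0276 and 0 CPM with TNFα against 21.9 to 33.1 CPM with IL-1β. *Lcn2* was at 7.53, 17.5, 14.0 and 10.9 CPM with TNFα, a log2 difference of 7.89 (standard error 0.21, adjusted p = 1.22e-20), and *Cxcl1* at 42.3, 30.7, 35.5 and 33.4 CPM (5.26). For these genes the TNFα libraries were close to the CTRL range or a few times above it. *Nos2* (15.2 ± 9.38 CPM with TNFα, 4.68), *Cxcl5* (124 CPM, 4.98) and *Il6* (18.5 ± 1.48 CPM, 4.03) were also higher with IL-1β. *Mmp3* was at 2948 ± 307 CPM with TNFα (1.26, adjusted p = 1.27e-09), a call that was lost with DESeq2 (adjusted p = 0.0897) and with robust moderation in edgeR (0.0776). *Ccl2* (1969 CPM with TNFα, log2 difference −0.17, standard error 0.09, adjusted p = 0.206) and *Ccl7* (720 CPM, 0.12, adjusted p = 0.327) did not differ beyond the threshold. The opposite order held for *Ubd*, a ubiquitin-like protein induced by TNF, at 9.53, 27.8, 12.1 and 9.21 CPM with TNFα and a mean of 0.172 CPM with IL-1β, and for *Ip6k3* and *Slc6a4* (0.142 and 0.299 CPM after IL-1β, 6.86 and 7.46 CPM after TNFα).

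Several lists held many genes that differed between the ligands. All 24 cholesterol synthesis genes were higher with IL-1β (9 without the replicate block), as were 24 of 27 glycolysis and hypoxia genes (20 without the block) and 10 of 16 acute-phase genes (10 without the block). Of 36 interferon-stimulated genes, 33 were higher with TNFα and 0 with IL-1β (17 and 0 without the block), with a median log2 difference of −1.17, and all 17 immunoproteasome and MHC class I genes were higher with TNFα (16 without the block). *Gbp2* was at 1594 ± 352 CPM in the TNFα libraries and 447 ± 120 CPM in the IL-1β libraries. Among NF-κB and IκB genes, 2 were higher with IL-1β and 8 with TNFα (1 and 7 without the block). *Nfkbiz* was at 41.8 ± 4.45 CPM with TNFα, close to its CTRL level and below its IL-1β level (log2 difference 2.57), whereas *Nfkbie* was at 189 ± 19.3 CPM with TNFα where IL-1β gave 34.1 CPM (−2.47). *Zc3h12a* was at 18.8 CPM with TNFα (3.28) and *Tnfaip3* at 271 CPM (−1.12). Of 35 genes of DNA replication and mitosis, 28 were higher with TNFα and 2 with IL-1β (7 and 1 without the block).

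**Figure D4:**
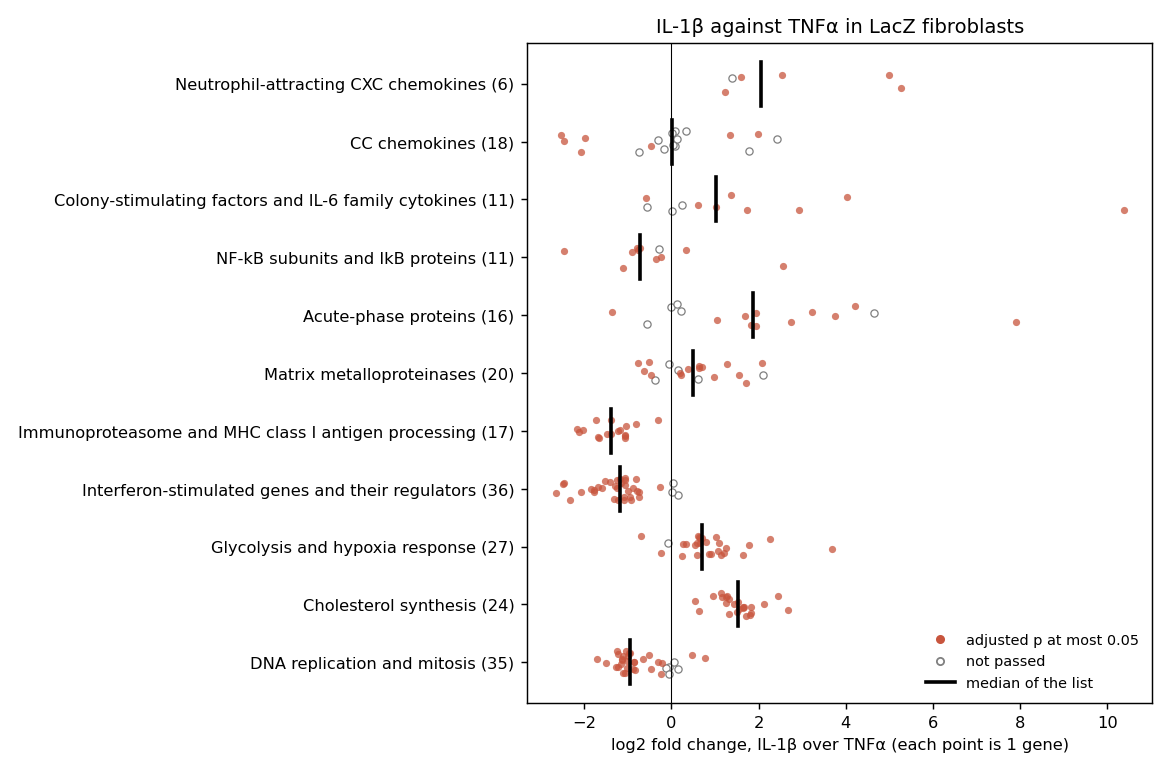
Log2 difference between IL-1β and TNFα libraries of LacZ fibroblasts for the members of 11 gene lists, with values above 0 higher with IL-1β, filled points at an adjusted p of at most 0.05 and a black bar at each median. Cholesterol synthesis genes lie above 0, and the immunoproteasome and MHC class I genes below it.

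The same ligand was given to iCre fibroblasts, and the difference of the responses was tested as an interaction over 16 libraries. The *Map3k7* counts cover all exons and so do not isolate the deleted exon. In iCre cells they were 127 ± 4.27 CPM without and 126 ± 4.07 CPM with IL-1β, which differed from the rise in LacZ cells (interaction −0.54, adjusted p = 0.000103). The response differed for 4255 genes, 16.9% of those tested, with 2263 (8.98%) less and 1992 (7.90%) more positive in iCre cells. These counts were 1943 genes without the replicate block and 2746 without replicate 3. *Cxcl1* went from 3.38 ± 1.25 to 178, 64.3, 105 and 109 CPM in iCre cells, and its log2 change was smaller by 2.49 than in LacZ cells (interaction −2.49, standard error 0.32, adjusted p = 2.27e-05). *Mmp3* went from 757 ± 182 to 1378 ± 459 CPM (interaction −1.71, adjusted p = 0.000535) and *Cxcl5* from 9.71 to 147 CPM (−3.31). *Nos2* reached 7.20, 6.33, 9.12 and 15.2 CPM with IL-1β in iCre cells, all far below the LacZ libraries, but its interaction did not pass (−3.88, standard error 1.42, adjusted p = 0.0702). Without replicate 2 it passed (−4.89, adjusted p = 0.000815), as it did with DESeq2 (adjusted p = 0.000157) and with no filter on low counts (0.0307). It did not pass under the other alternatives, with −3.26 (adjusted p = 0.168) without replicate 1.

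For some genes the estimated difference between the responses was small. The log2 change of *Nfkbiz* (46.3 to 311 CPM in iCre cells) differed from that in LacZ cells by −0.13 (standard error 0.16), of *Timp1* (367 to 2029 CPM) by −0.07 (0.24) and of *Bcl3* by −0.02 (0.16), and these did not pass the interaction test. By contrast *Tlr2* (interaction −2.66), *Slc16a1* (−2.44), *Tnfaip3* (−2.04) and *Sod2* (−1.95) responded less. *Acod1*, which makes itaconate, went from 0.0985 to 6.30 CPM in LacZ cells and from 0.113 to 0.178 CPM in iCre cells (−5.28), and *Trdc* reached 1.38 CPM in iCre cells (−4.32, adjusted p = 0.0681 without replicate 3). Some genes that IL-1β lowered in LacZ cells fell less in iCre cells, among them *Tnnt2* (27.8 to 8.63 CPM, interaction 3.77). *Timp3* was at 1212 and 1009 CPM in iCre cells (1.80, adjusted p = 0.159 without the replicate block). Of 16 acute-phase genes, 9 had a less positive and 0 a more positive response in iCre cells (6 and 0 without the block), of 24 cholesterol genes 11 and 0 (8 and 0), and of 35 genes of DNA replication and mitosis 1 and 20 (0 and 1).

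**Figure D5:**
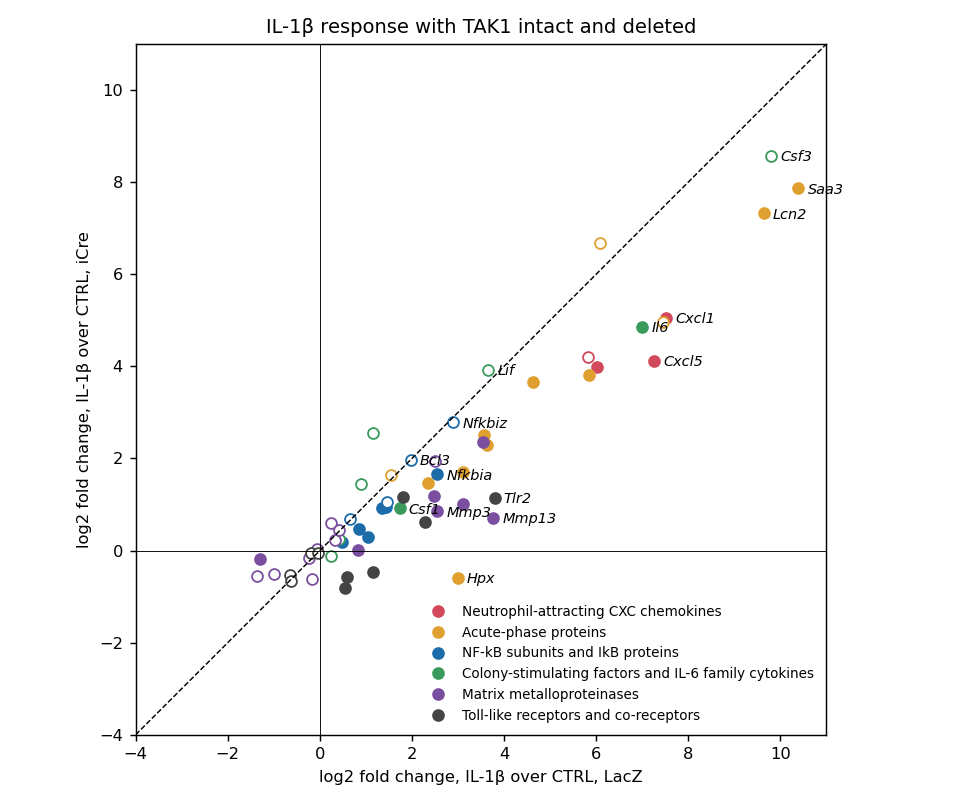
Log2 fold change by IL-1β in LacZ fibroblasts (x axis) against that in iCre fibroblasts (y axis) for genes of 6 lists with a mean of at least 1 CPM, filled where the interaction had an adjusted p of at most 0.05. The dashed line marks an equal change, and *Cxcl1* and *Mmp3* lie below it.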

How the data were processed

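Gene-level read counts of 40 libraries (10 groups of 4) were deposited by the authors, who per their methods and processing notes checked reads with FastQC (0.10.1 in the notes, another version in the methods), aligned them to mm10 (GRCm38) with STAR and counted them with HTSeq 0.10.0. The annotation release and strand setting are not given in the sources used here, and the labels and the methods name different library kits. Of 55414 genes, 52133 were found in GENCODE M21, which gave positions.

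Groups, replicate numbers and doses came from the labels. Genes with at least 10 counts over the 40 libraries (25210) entered edgeR 4.0.16 (R 4.3.3) with TMM factors, a quasi-likelihood test, the replicate number as a block and Benjamini-Hochberg adjustment over all genes, at a threshold of 0.05. Each comparison used its own groups (8 libraries, or 16 for the interaction). CPM are TMM-scaled over all 40 libraries, ± is the SD of 4 libraries, and counting intervals and floors cover counting error only. Standard errors were derived from the test, as the size of the log2 fold change divided by the square root of its F statistic. They were not estimated apart from that test. Totals of 28888257 to 51264530 counts set the precision of low genes, and a floor of 3 counts per library bounded folds against groups at 0. The labels do not say what a replicate number stands for. Library numbers ran from 31 to 40 for replicate 1 and from 51 to 80 for replicates 2 to 4, and the labels do not say why. Deviations from the group means correlated at 0.516 to 0.758 between CTRL and IL-1β libraries of equal number and at −0.483 to 0.371 otherwise, and all 8 libraries correlated best with their own number, so the numbers were treated as pairs.

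Simulated counts for 25210 genes held 100 genes changed by 1 and 100 changed by 2 (log2), all with a mean of at least 1 CPM. The IL-1β against CTRL fit recovered 98% of the former and 100% of the latter, with 22 false calls of 220. Recovery below 1 CPM was not tested, nor were as many changed genes as the 8455 called in the data. The TNFα fit gave 27 false calls of 224 and the interaction 51 of 239. The shares of false calls, 10%, 12.1% and 21.3%, were above the nominal rate in the CTRL, TNFα and interaction fits alike. With robust moderation they were 17 of 215 in the CTRL fit and 18 of 202 in the interaction. DESeq2 1.42.0, limma 3.58.1, Python 3.11.15, pandas 2.3.3 and matplotlib 3.10.9 served for alternatives, tables and plots.

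The comparison, 34 gene lists (679 of 697 members tested) and the rule for naming genes were chosen with earlier results of these data known. Named genes were the markers *Nos2*, *Cxcl1* and *Mmp3*, *Map3k7*, the 10 largest log2 fold changes each way (mean of at least 1 CPM, groups not overlapping), the 10 largest CPM gains and losses, up to 4 largest changes, 2 highest levels and 3 highest genes not passing per list, every member of the lists of receptors, adaptors, NF-κB proteins, neutrophil attractants and markers of other cells, and the 8 largest differences each way from TNFα and from iCre cells. Some genes that the rule names are not reported here. *Saa1* and *Syn3* are named beside these for shared reads. Alternatives were DESeq2, other size factors, filters, a GC-content offset, all 40 libraries in a single fit, robust moderation, protein-coding genes, no block and each replicate left out. Promoters came from RefSeq (GRCm38.p6).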

Additional observations from a re-analysis of the deposited data

Results flagged for a closer look

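In 4 of 74 groups of 4 libraries tested over 38 genes, a library lay far from the other 3, with a gap to its neighbour, as a share of the group's range, above Dixon's 95% critical value. Chance gives about 1 such group in 20. The gap was 1.0 of the range for *Csf3* in CTRL, where 1 library had counts, 0.857 for *Saa4* with IL-1β, where replicate 1 was low, 0.927 for *Gria1* with IL-1β, where replicate 2 was high, and 0.865 for *Vim* in CTRL, where replicate 2 was low.

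The response to IL-1β differed between iCre and LacZ cells for 4255 genes by the interaction test in edgeR. The differences below are log2 fold changes in iCre cells minus those in LacZ cells. Among genes that fell in LacZ cells they were 5.38 for *Kcnj5*, 4.17 for *Cntn2*, 3.77 for *Tnnt2*, 3.35 for *Rhov*, 3.24 for *Gm13749*, 3.14 for *Nptx1* and 3.09 for *Gria1*. The calls of *Kcnj5*, *Cntn2*, *Gm13749* and *Gria1* were lost without the replicate block (adjusted p = 0.0867, 0.125, 0.169 and 0.310), and that of *Gria1* also without replicate 3 (0.0526) and with robust moderation in edgeR (0.0840). With a replicate left out, the difference of *Kcnj5* was as low as 4.71, that of *Rhov* as high as 3.98, that of *Nptx1* as low as 2.52, that of *Gria1* as high as 4.58, and that of *Gm13749* between 2.22 and 3.85.

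Among genes that rose in LacZ cells the differences were −5.71 for *AC154707.1*, −5.28 for *Acod1*, −4.32 for *Trdc*, −4.06 for *Vnn3*, −3.73 for *Il13ra2*, −3.72 for *C1rb*, −3.62 for *Hpx*, −3.31 for *Cxcl5*, −2.49 for *Cxcl1* and −1.71 for *Mmp3*. *Il13ra2*, a decoy receptor for IL-13, went from 0.322 to 19.4 CPM in LacZ cells and reached 1.42 CPM in iCre cells. *Hpx*, which binds free heme, went from 1.18 to 9.33 CPM in LacZ cells and stood at 1.11 and 0.714 CPM in iCre cells. The difference of *Vnn3* was −5.53 without replicate 3 and −3.43 without replicate 4, and that of *C1rb* was −5.06 and −2.99. Without replicate 4 the calls of *Vnn3* and *C1rb* were lost (adjusted p = 0.156 and 0.0557), that of *Vnn3* was also lost with robust moderation (0.0671) and that of *Trdc* without replicate 3 (0.0681), and *C1rb* is a close copy of *C1ra*, between which reads may be split uncertainly.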

How the results depend on the processing

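Without the replicate block, the pairing of libraries being left out of the fit, 2800 genes rose and 2408 fell in place of 4098 and 4357. In that fit 2426 in place of 6107 genes differed from TNFα, 1943 in place of 4255 had another response in iCre cells, and 4098 in place of 8513 changed in iCre cells. With a log2 fold change of at least 1 required, 977 genes rose and 1459 fell, 1521 differed from TNFα, 1045 differed in response and 1660 changed in iCre cells, since the added criterion removes calls. With each replicate left out in turn, 3430 to 4074 genes rose and 3305 to 4490 fell, 4726 to 6120 differed from TNFα, 2746 (without replicate 3) to 3634 differed in response and 7246 to 7952 changed in iCre cells. The cause of the drop without replicate 3 was not tested. All other alternatives run for these counts stayed within 1.5 times. Of 325 gene results, 248 kept direction and call in every alternative that gave a value, which for DESeq2 was 314 genes, for the filterByExpr filter 301 and for protein-coding genes 320. Without the block 46 lost the call and 1 gained it, and leaving out a replicate lost 4 to 8 and gained 1 to 10, *Ccl9* and *Il1rn* among the gains. *Adamts15*, which did not pass in the fit of all replicates (−0.08, adjusted p = 0.723), changed sign without replicate 2 (0.24, adjusted p = 0.0326). Without replicate 1 it passed in the opposite direction (−0.36, adjusted p = 0.0101). *Nfkbid* and *Ppbp*, whose calls were lost in some alternatives, were under 1 CPM, and the part of depth in those losses was not tested.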
